A study of Homo sapiens with 3 samples.

Results

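The genes described here are 44 genes of the ATF4 stress response and of amino acid supply, out of 17448 genes in the deposited table of H128, an established human small cell lung cancer (SCLC) line. They were taken by symbol and comprise the ATF4 and CHOP transcription factors and reported amino acid, one-carbon and transporter targets of these factors. Also included are EIF2AK1, EIF2AK3 and EIF2AK4, genes of kinases that phosphorylate eIF2, and 13 cytosolic tRNA synthetases. EIF2AK2, the gene of a further such kinase, is not among the 44. The table lists the synthetases under their older names (AARS, GARS and so on). The H128 cells were harvested 48 h after transfection with a control siRNA (siCont) or with either of the siRNAs siERRG2 and siERRG3 directed against ESRRG, the gene of the orphan nuclear receptor ERRγ. Total RNA of each condition gave 1 library, and which of the siRNA sequences of the study went into siERRG2 and which into siERRG3 is not settled by the labels. All cells were of the same line, and no drug is named in the titles of these libraries. The question addressed was how these genes behaved when ESRRG was knocked down, and whether both siRNAs gave the same picture.

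The summed counts lay between 19861937 and 20016780 per library. ESRRG had 806 counts under siCont, 211 under siERRG2 and 230 under siERRG3, which is a log2 fold change of -1.94 and of -1.82. Neuroendocrine markers of SCLC were abundant, with CHGA at 69.96 to 96.9 FPKM and UCHL1 at 696 to 1006 FPKM. NCAM1 lay at 54.75 to 67.38 FPKM and ENO2 at 76.56 to 80.38 FPKM. INSM1 was at 183 FPKM under siCont, 93.3 under siERRG2 and 161 under siERRG3, and SYP at 109, 106 and 77.3 FPKM. Of the epithelial markers, EPCAM had 13 to 18 counts per library, and KRT8 and KRT18 stayed below 5 FPKM. Of the markers of other cells, PTPRC, CD3E, COL3A1 and PECAM1 had at most 47 counts, COL1A1 had 127 to 181, and CDH5, a cadherin of endothelium, was not near 0, with 1456 counts under siCont, 1623 under siERRG2 and 585 under siERRG3. The part of these differences in the results was not tested.

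The integrated stress response begins with kinases that phosphorylate the translation factor eIF2, among them those that sense heme loss, unfolded proteins in the endoplasmic reticulum or uncharged tRNA. Most protein synthesis then slows while ATF4, whose messenger carries upstream reading frames, is translated more. ATF4 binds DNA together with C/EBP proteins at C/EBP-ATF response elements and switches on genes for amino acid import, amino acid synthesis and tRNA charging, while CHOP, the product of DDIT3, is induced under lasting stress. Because ATF4 is controlled largely through translation, the level of its messenger does not give the level of the protein, and neither phosphorylation of eIF2 nor ATF4 protein was measured in these files.

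Promoter sequences of 35 of the 44 genes were found in RefSeq (GRCh38.p14), as windows from 250 bases before to 50 bases after an annotated start of transcription. NUPR1, EIF2AK1, EIF4EBP1, PSPH, SHMT2, ALDH1L2, SLC7A11, LARS and YARS had none. The core of the C/EBP-ATF response element, TGATGNAA on either strand, was present in 15 of these 35 genes (42.9%), against 2.89% of the 11295 genes that passed the count filter and had a window. Counted by window, the core was in 27.3% of the 55 windows of the set and in 2.09% of the 16592 windows of all genes tested. Since many of the genes were listed because they are known ATF4 targets, this share describes how the list was made and is not a result of the knockdown. The following 60-base stretches, written 5′ to 3′ on the strand of the gene, show the core in capitals in the genes to which the differences below return: the effector CHAC1 (chr15:40953236-40953295, plus strand), the factors ATF3 (chr1:212565190-212565249, plus) and CEBPG (chr19:33374045-33374104, plus), the enzyme ASNS (chr7:97872443-97872502, minus), the transporters SLC1A4 (chr2:64989340-64989399, plus) and SLC1A5 (chr19:46784878-46784937, minus), and the synthetases AARS (chr16:70289660-70289719, minus) and CARS (chr11:3057418-3057477, minus). Capitals that read TTGCATCA carry the core on the opposite strand.
CHAC1: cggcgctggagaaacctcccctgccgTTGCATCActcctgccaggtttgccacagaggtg
ATF3: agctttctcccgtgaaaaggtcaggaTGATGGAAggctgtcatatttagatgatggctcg
CEBPG: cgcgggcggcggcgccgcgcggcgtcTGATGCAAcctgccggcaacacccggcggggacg
ASNS: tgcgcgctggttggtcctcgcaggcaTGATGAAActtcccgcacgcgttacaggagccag
SLC1A4: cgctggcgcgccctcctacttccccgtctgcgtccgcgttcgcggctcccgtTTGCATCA
SLC1A5: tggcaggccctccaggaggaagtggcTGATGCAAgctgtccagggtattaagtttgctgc
AARS: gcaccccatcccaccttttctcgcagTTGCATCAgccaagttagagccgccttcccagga
CARS: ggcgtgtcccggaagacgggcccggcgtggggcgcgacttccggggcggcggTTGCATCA

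The first base of the core lay 209 bases before the start in CHAC1, 191 before it in ATF3, 187 in AARS, 97 in SLC1A5, 68 in ASNS and 42 in CEBPG. In SLC1A4, CARS, IARS, MARS, GARS, TARS, SLC7A1, NARS and SLC3A2 it lay between 33 bases before and 38 bases after the start. The cAMP response element TGACGTCA was found in 1 gene, PPP1R15A, 58 bases before the start, and in 3.73% of all genes tested. Neither the ERR response element, searched as TNAAGGTCA, nor the ER stress response element was found in any of the 35 genes, against 0.761% and 0.168% of the genes tested. A window without these letters says nothing about sites farther away.

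The level of each gene was read from the FPKM values, in which the count is scaled for transcript length and library size, so that levels can be compared between genes. In siCont, ATF4 was the highest of the 44, at 264 FPKM, rank 236 of the 14031 genes with at least 10 counts in a library. GARS, the glycyl-tRNA synthetase, followed at 246 FPKM and EIF4EBP1, the translation repressor that binds eIF4E, at 223 FPKM. The 13 synthetases lay between 26.4 and 246 FPKM. At the other end were SLC7A11, the cystine carrier, at 1.11 FPKM, CTH at 2.94, CHAC1 at 3.05 and the kinase gene EIF2AK3 at 3.92. All 44 genes passed the count filter, and the lowest count of any of them was 105, for CHAC1 in siCont.

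**Figure D1:**
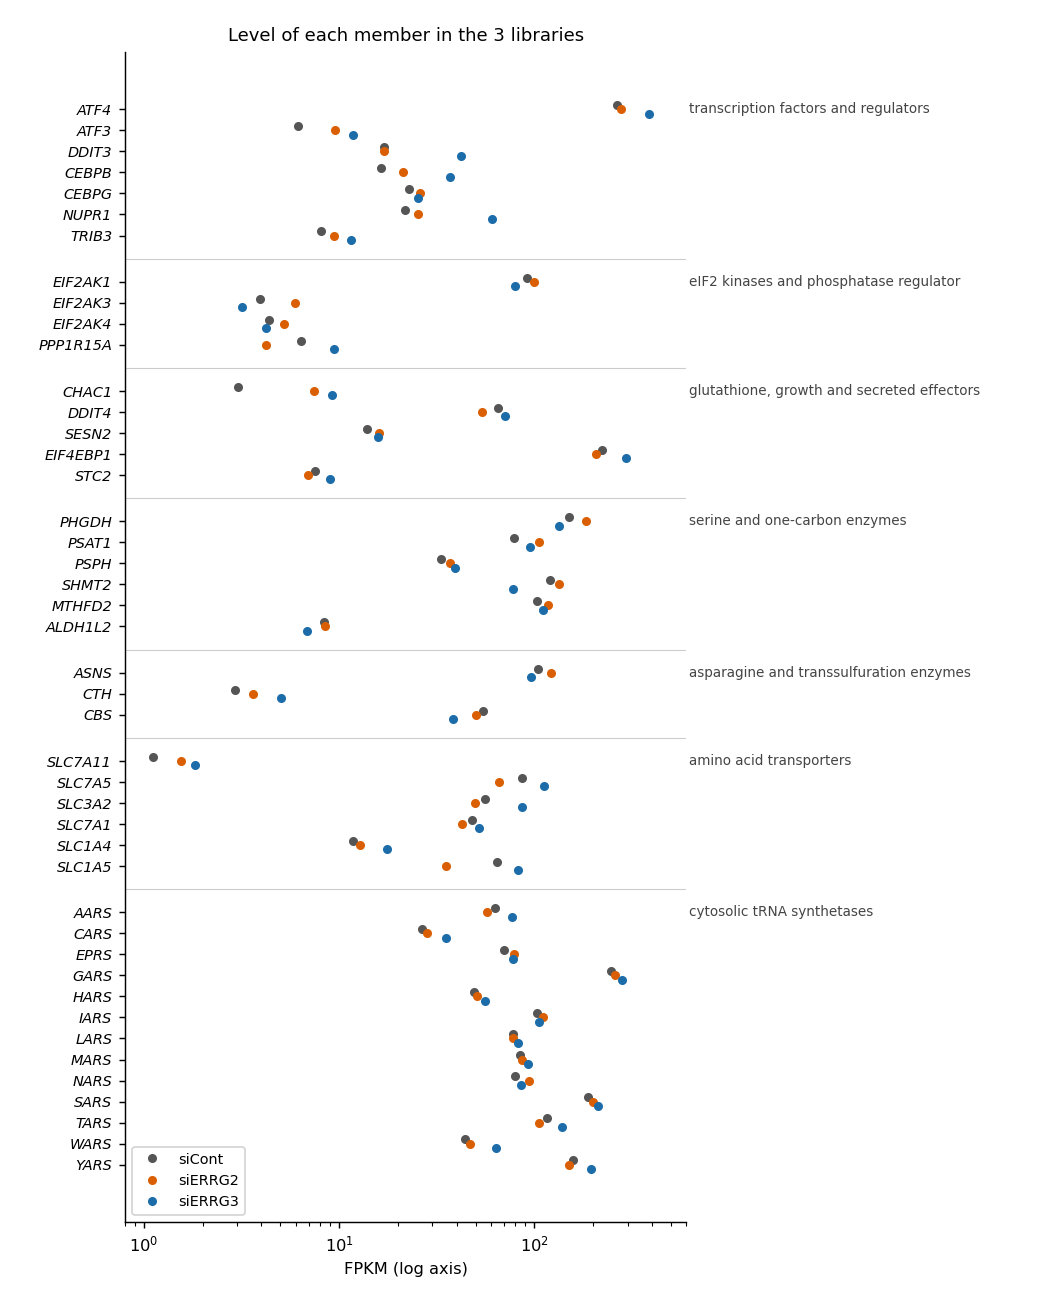
Level of each of the 44 genes in the 3 libraries. The horizontal axis is FPKM on a log scale, with a grey point for siCont, an orange point for siERRG2 and a blue point for siERRG3; ATF4, GARS and EIF4EBP1 lie above 200 FPKM in every library and SLC7A11 below 2 FPKM in every library.

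Differences between libraries were taken from counts scaled with TMM factors and are given as log2 fold changes, and a gene was called higher or lower at 1.2-fold, the threshold of the study. The 95% interval printed with a ratio is an exact one (Clopper-Pearson) on the unscaled counts, whose bounds were then scaled like the ratio. It reflects counting error alone and speaks of these libraries rather than of the treatments, because there was 1 library per condition and no spread between replicates can be estimated. No p-value is given for this reason. A scaled count is a share of the library, so fewer cells that make a transcript and less of it per cell cannot be told apart.

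In siERRG2, 8 of the 44 genes (18.2%) were at least 1.2-fold higher than siCont, where 16.4% of all genes tested were, and 4 (9.09%) were at least 1.2-fold lower, where 19.2% were. The number higher was therefore near the background. In siERRG3, 19 of the 44 (43.2%) were higher than siCont, where 23.2% of all genes tested were, and 4 (9.09%) were lower, where 25.1% were. Over the 44 genes the log2 fold change had a median of 0.08 under siERRG2 and 0.21 under siERRG3, while the median of all genes tested was -0.00 in each. Among the 11369 genes that averaged 50 counts or more, which have less counting noise, 12.5% were higher and 15.7% lower in siERRG2, and 20.5% were higher and 23.4% lower in siERRG3. At 1.5-fold, 3 of the 44 genes were higher in siERRG2 (4.29% of all genes tested) and 2 lower (6.97%), and 8 were higher in siERRG3 (8.47%) and 1 lower (9.95%). These comparisons share the siCont library, so their values stand side by side.

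The ratio to siCont lay above 1 with its whole interval for 23 of the 44 genes in siERRG2 (21.7% of all genes tested) and for 35 in siERRG3 (27.1%). It lay below 1 for 11 genes in siERRG2 (22.4%) and for 7 in siERRG3 (28.5%). Intervals narrow as counts rise, and the median over genes of the mean count was 2681 for the 44 genes and 538 for all genes tested, so these shares do not compare genes of like depth.

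**Figure D2:**
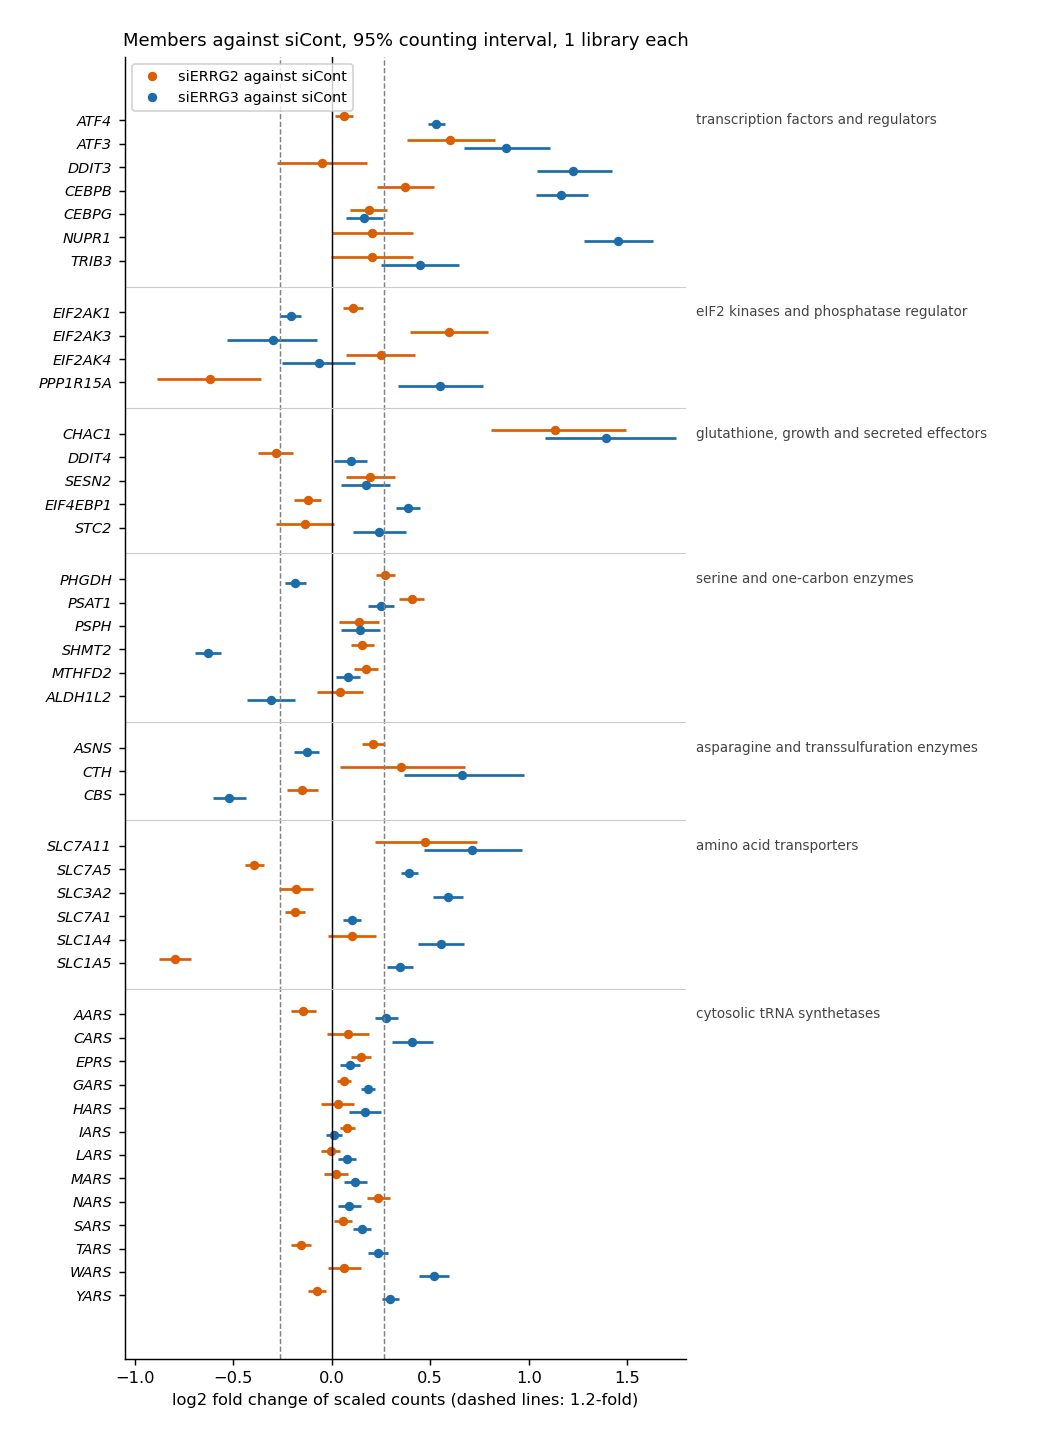
Log2 fold change of each of the 44 genes against siCont, by role. Orange points are siERRG2 and blue points siERRG3, bars are 95% counting intervals from 1 library each, and dashed lines mark 1.2-fold; among the factors ATF3, CEBPB, NUPR1 and DDIT3 lie farthest to the right in siERRG3, while SLC7A5, SLC1A5 and PPP1R15A lie on opposite sides of 0 in the 2 knockdowns.

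For the roles below, numbers called can be read against all genes tested. Of those, 16.4% were called higher and 19.2% lower in siERRG2, and 23.2% and 25.1% in siERRG3. The transcription factors and regulators were the role with the largest median difference in siERRG3. Their median log2 fold change was 0.88 in siERRG3, with 6 of 7 called higher and 0 lower, and 0.20 in siERRG2, with 2 of 7 higher and 0 lower. ATF4 itself had 7456 counts under siCont, 7860 under siERRG2 and 10953 under siERRG3. It was close to siCont in siERRG2 (log2 fold change 0.06, ratio 1.01 to 1.08) and 1.45-fold higher in siERRG3 (log2 0.53, ratio 1.40 to 1.49). The extent of ATF4 in the table overlaps MIEF1 and RPS19BP1, which had log2 fold changes of 0.50 and 0.73 in siERRG3, and the part of these neighbours in the ATF4 count was not tested.

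DDIT3, which encodes CHOP, had 321 counts under siCont, 314 under siERRG2 and 767 under siERRG3. In siERRG2 its ratio to siCont was 0.825 to 1.13, so no difference was detectable at this depth, whereas in siERRG3 the log2 fold change was 1.23 and the ratio 2.06 to 2.69. The extent listed for DDIT3 lies within that of MARS and overlaps DCTN2 and MBD6. MARS was at 0.02 and 0.12, DCTN2 at -0.15 and -0.33 and MBD6 at -0.04 and 0.37. From siCont to siERRG3, MARS went from 4582 to 5064 counts, MBD6 from 1515 to 1985 and DCTN2 from 3489 to 2816. The part of these neighbours in the DDIT3 count was not tested.

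NUPR1, a small chromatin-associated stress protein, had 366 counts under siCont, 427 under siERRG2 and 1021 under siERRG3. The siERRG3 library stood apart from the others, with a log2 fold change of 1.45 (ratio 2.43 to 3.10), the highest of the 44 genes in that library, against 0.21 in siERRG2. CLN3, which the table places over NUPR1, was lower than siCont in siERRG3, at -0.27. SULT1A1, also placed over NUPR1, had 20, 8 and 26 counts and was at 0.33 in siERRG3. The part of these neighbours in the NUPR1 count was not tested. CEBPB, a C/EBP partner of ATF4 with no overlapping gene in the table, had 684, 896 and 1562 counts, and both knockdown libraries were above siCont, at 0.37 and 1.17. ATF3, a repressor and activator that is itself an ATF4 target, had 271, 417 and 510 counts, and its log2 fold changes were 0.60 (ratio 1.30 to 1.78) and 0.88 (ratio 1.59 to 2.15). TRIB3, a pseudokinase that restrains ATF4, was at 0.20 in siERRG2, with an interval that reached 1, and was called higher in siERRG3, at 0.45. CEBPG, the other C/EBP partner, had 1707, 1967 and 1948 counts and stayed below 1.2-fold in each knockdown, at 0.19 and 0.17. The factors thus did not move as a block in siERRG2, where DDIT3 and ATF4 were near siCont and ATF3 and CEBPB were above it.

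Those of the 44 genes that set the phosphorylation of eIF2 had no common direction. EIF2AK3 encodes PERK, the kinase of the endoplasmic reticulum, and had 348 counts under siCont, 532 under siERRG2 and 287 under siERRG3. It was called higher in siERRG2 (log2 0.59, ratio 1.32 to 1.74) and lower in siERRG3 (log2 -0.30, ratio 0.691 to 0.951), although with FPKM and a pseudocount of 1 the siERRG3 value was -0.23, below the threshold. The table lists no gene over EIF2AK3. PPP1R15A encodes GADD34, which brings a phosphatase to eIF2, and had 304, 200 and 453 counts. It was called lower in siERRG2 (log2 -0.62, ratio 0.541 to 0.780) and higher in siERRG3 (log2 0.55, ratio 1.26 to 1.70). NUCB1, whose listed extent overlaps PPP1R15A, had 1430, 1228 and 1052 counts and was at -0.24 and -0.47. PLEKHA4 and TULP2, also placed over PPP1R15A, had at most 7 counts. The part of these neighbours in the PPP1R15A count was not tested. EIF2AK4, which encodes the amino acid sensor GCN2, and EIF2AK1, which encodes the heme-regulated kinase, were not called in either library. Their log2 fold changes were 0.25 and 0.11 in siERRG2 and -0.07 and -0.21 in siERRG3.

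Among the effectors, CHAC1 had the largest difference in siERRG2 of all 44 genes. CHAC1 encodes a cyclotransferase that breaks down glutathione, and its 105 counts in siCont compared with 235 in siERRG2 and 284 in siERRG3. The log2 fold change was 1.13 (ratio 1.75 to 2.81) and 1.39 (ratio 2.12 to 3.36). The mix of transcripts assigned to CHAC1 also differed: the length implied by its count and FPKM was 1733 bases in siCont, 1585 in siERRG2 and 1546 in siERRG3. It was the only one of the 44 genes to move by at least 0.1 on the log2 scale in this measure against siCont, where 3.93% of 10171 genes did in siERRG2 and 5.77% in siERRG3. INO80, whose extent in the table overlaps CHAC1, was at -0.02 and 0.27.

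The other effectors differed less. DDIT4, an inhibitor of mTORC1, had 2262 counts under siCont, 1878 under siERRG2 and 2459 under siERRG3, and was called lower in siERRG2, at -0.29, and not called in siERRG3, at 0.10. DNAJB12, which the table places over DDIT4, had 523, 366 and 567 counts and was at -0.53 and 0.09. ASCC1, also placed over it, was at 0.085 and 0.083, and the part of these neighbours in the DDIT4 count was not tested. EIF4EBP1 had 3709, 3447 and 4934 counts, was at -0.12 and 0.39 on the log2 scale, and was called higher in siERRG3. SESN2, a leucine sensor upstream of mTORC1, had 980, 1135 and 1123 counts and was called in neither library (0.20 and 0.17). STC2, a secreted glycoprotein, was also called in neither (-0.14 and 0.24). The median of the 5 effectors was -0.12 in siERRG2 and 0.24 in siERRG3.

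The enzymes of serine synthesis and of mitochondrial one-carbon metabolism had a median near 0 in siERRG3, where none of the 6 was called higher and 2 were called lower. In siERRG2, 2 of the 6 were called higher and 0 lower. Their median was 0.17 under siERRG2 and -0.05 under siERRG3 on the log2 scale. PHGDH, the first enzyme of serine synthesis, had 6033 counts under siCont, 7369 under siERRG2 and 5400 under siERRG3, and PSAT1, the next, had 3528, 4729 and 4269. Both were called higher in siERRG2, at 0.27 and 0.41, and in siERRG3 they were at -0.18 and 0.25, below the threshold. PSPH, the last step, was at 0.14 and 0.15. CCT6A, which overlaps PSPH in the table and has many more reads (13633 counts in siCont against 1555), was at 0.28 and 0.26. Of the other abundant genes over PSPH, SUMF2 was at -0.17 and -0.35 and NIPSNAP2 at -0.18 and -1.62, CHCHD2 at 0.13 and 0.34, and the part of these neighbours in the PSPH count was not tested.

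SHMT2, which moves one-carbon units from serine inside mitochondria, had 4869 counts under siCont, 5489 under siERRG2 and 3203 under siERRG3. It was the lowest of the 44 genes in siERRG3, with a log2 fold change of -0.63 and a ratio of 0.619 to 0.677, while it was at 0.16 in siERRG2. R3HDM2, over which the table extends SHMT2, had 582, 605 and 339 counts and was lower in siERRG3 too, at -0.80, and its part in the SHMT2 value was not tested. ALDH1L2, a mitochondrial folate enzyme, had 1209, 1259 and 992 counts and was called lower in siERRG3, at -0.31, a call not made with FPKM and a pseudocount of 1 (-0.24). MTHFD2, another mitochondrial folate enzyme, was called in neither library, at 0.17 and 0.08.

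ASNS, asparagine synthetase and a widely used readout of ATF4, had 4174 counts under siCont, 4891 under siERRG2 and 3886 under siERRG3. It was called in neither knockdown (log2 0.21 and -0.13), although the intervals of its ratio, 1.11 to 1.21 and 0.876 to 0.957, both excluded 1. The enzymes of transsulfuration, through which homocysteine becomes cysteine, had opposite values in siERRG3. CBS, the first step, had 2758, 2516 and 1955 counts and was called lower in siERRG3, at -0.52. CTH, the next step, had 149, 193 and 241 counts and was called higher in siERRG2 (log2 0.35, ratio 1.03 to 1.60) and in siERRG3 (log2 0.66, ratio 1.29 to 1.96). With FPKM and a pseudocount of 1 its value in siERRG2 was 0.23, below the threshold. HHLA3, which overlaps CTH in the table, had 249, 349 and 251 counts and was at 0.47 and -0.01. ANKRD13C, which also overlaps it, had 775, 983 and 578 counts and was at 0.33 and -0.45. The part of these neighbours in the CTH count was not tested.

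Of the amino acid transporters, SLC7A11 was called higher than siCont in each knockdown, while SLC1A5 and SLC7A5 were called lower in siERRG2 and higher in siERRG3. In siERRG3, 5 of 6 were called higher and 0 lower, with a median log2 fold change of 0.47, and in siERRG2 1 was called higher and 2 lower, with a median of -0.19. SLC1A5, the ASCT2 carrier of glutamine, had 3409 counts under siCont, 1987 under siERRG2 and 4410 under siERRG3. It was the lowest of the 44 genes in siERRG2, with a log2 fold change of -0.80 and a ratio of 0.545 to 0.609, and it was above siCont in siERRG3, at 0.35 with a ratio of 1.22 to 1.33. STRN4, over which the table extends SLC1A5, had 4108, 3479 and 4371 counts and was at -0.26 and 0.07.

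SLC7A5 and SLC3A2 encode the light and heavy chains of the LAT1 carrier of large neutral amino acids. SLC7A5 had 7526 counts under siCont, 5802 under siERRG2 and 10060 under siERRG3, and was called lower in siERRG2, at -0.39, and higher in siERRG3, at 0.39. SLC3A2 had 2336, 2081 and 3574 counts, in the same order of libraries, and log2 fold changes of -0.18 and 0.59. For both chains siERRG2 was thus the lowest library and siERRG3 the highest. SLC7A11, which pairs with the same heavy chain to import cystine, had 215, 303 and 359 counts and was called higher in siERRG2 (log2 0.48, ratio 1.17 to 1.67) and in siERRG3 (log2 0.71, ratio 1.38 to 1.95). SLC1A4, the ASCT1 carrier, had 1044, 1133 and 1559 counts and was called higher in siERRG3, at 0.55. SLC7A1, which carries cationic amino acids, was called in neither library, at -0.19 and 0.10.

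The 13 cytosolic tRNA synthetases, which load amino acids onto tRNA, stayed within narrow bounds. None was called in siERRG2, where their log2 fold changes ran from -0.16 to 0.24 and their median was 0.06. In siERRG3 all 13 were above 0, from 0.01 to 0.52, with a median of 0.17, while 6960 of the 14031 genes tested were above 0. Of the 13, 4 (30.8%) were called higher, where 23.2% of all genes tested were. WARS (tryptophan) had 2303 counts under siCont, 2436 under siERRG2 and 3357 under siERRG3, and its log2 fold change in siERRG3 was 0.52. CARS (cysteine) had 1359, 1455 and 1836 counts and was at 0.41. YARS (tyrosine) was at 0.30 and AARS (alanine) at 0.28. The other 9, EPRS, GARS, HARS, IARS, LARS, MARS, NARS, SARS and TARS, lay between 0.01 and 0.24 in siERRG3. These are abundant transcripts, so that a ratio as small as that of GARS in siERRG2, 1.02 to 1.07, lay outside counting error, which does not measure how much 2 cultures of the same condition would differ.

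**Figure D3:**
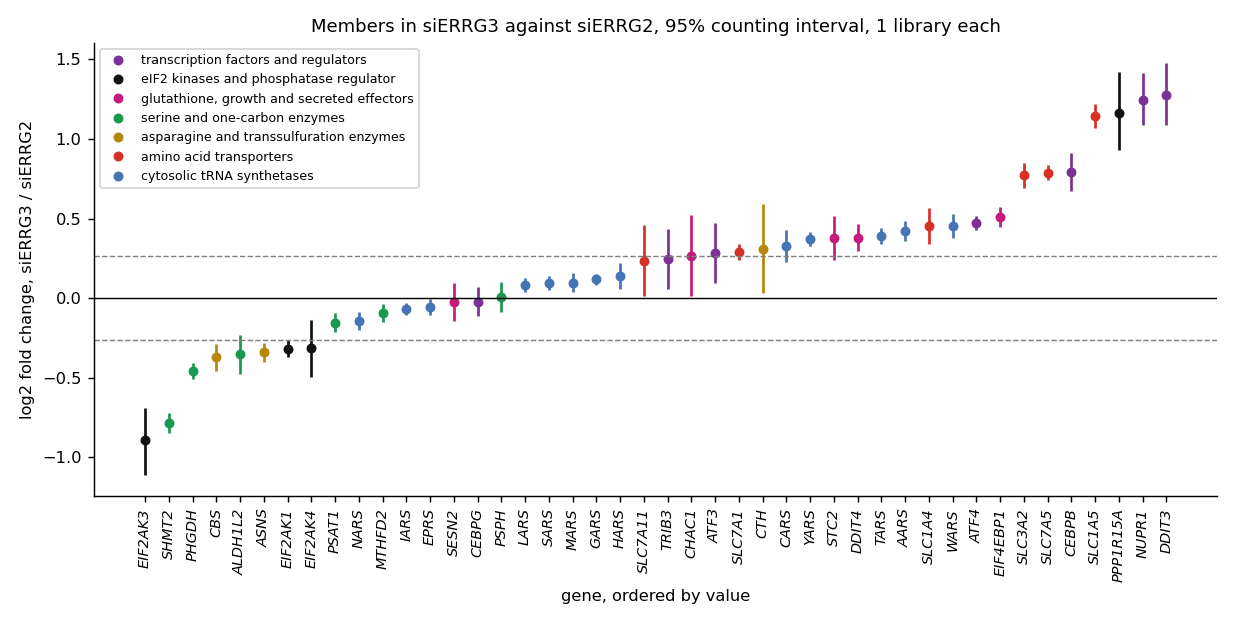
Log2 fold change of each of the 44 genes in siERRG3 against siERRG2, ordered by value and coloured by role. Bars are 95% counting intervals from 1 library each and dashed lines mark 1.2-fold; DDIT3, NUPR1, PPP1R15A and SLC1A5 are highest in siERRG3, and EIF2AK3 and SHMT2 lowest.

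The knockdown libraries were also compared with each other, without siCont. In siERRG3, 21 of the 44 genes (47.7%) were at least 1.2-fold higher than in siERRG2, where 26.4% of all genes tested were, and 8 (18.2%) were lower, where 25.3% were. The whole interval of the ratio lay above 1 for 28 genes (29.1% of all genes tested) and below 1 for 13 (28.4%). The median log2 difference of the 44 genes was 0.24, against 0.01 over all genes tested. At 1.5-fold, 7 of the 44 were higher in siERRG3 than in siERRG2 (10.7% of all genes tested) and 2 were lower (10%). ESRRG itself was at 0.12 in this comparison, within 1.2-fold.

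By role, the transporters had the highest median in siERRG3 against siERRG2, at 0.61, with 5 of 6 called higher, followed by the factors at 0.47, with 5 of 7. DDIT3 was highest, at 1.28 (ratio 2.13 to 2.78), and NUPR1 was next, at 1.25. PPP1R15A was at 1.16 and SLC1A5 at 1.14. The synthetases had a median of 0.12, with 5 of 13 called higher and 0 lower. The serine and one-carbon enzymes had a median below 0, at -0.25, with 0 of 6 higher and 3 lower, while PSPH was at 0.01. Among the other enzymes ASNS was at -0.34 and CBS at -0.37, both called lower, and CTH at 0.31, called higher. EIF2AK3 was the lowest, at -0.89 (ratio 0.463 to 0.621), and SHMT2 followed at -0.78. CHAC1, called higher than siCont by each siRNA, was at 0.26 here, on the threshold, and was under it with library totals alone, with DESeq2 size factors and with no filter. CTH was the only one of the 44 whose implied length moved by at least 0.1 log2 between these libraries, from 2684 bases in siERRG2 to 2391 in siERRG3, where 6.23% of 10171 genes moved that far.

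Genes with the C/EBP-ATF core in their window are set beside genes without it, with no test. Under siERRG2 the median was 0.08 over the 15 genes with the core and 0.11 over the 20 without. In siERRG3 it was 0.24 and 0.21. There 7 of 15 and 8 of 20 genes were called higher, where 23.2% of all genes tested were, and 0 and 2 were called lower (25.1%). In siERRG2, 2 of 15 and 5 of 20 were called higher (16.4% of all genes tested) and 1 and 3 lower (19.2%). Among the 15 were CHAC1, with the core 209 bases before the start and called higher in both libraries, and ASNS, with it 68 bases before the start and called in neither.

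Further genes of the pathway were taken from lists outside the 44. Of 24 other reported ATF4 targets, 23 passed the count filter, and 5 were called higher and 3 lower in siERRG2 (median 0.08) and 7 higher and 4 lower in siERRG3 (median 0.07). Those called higher were 21.7% and 30.4% of the list, near the 16.4% and 23.2% of all genes tested, and in siERRG2 the interval lay above 1 for 3 of the 5. ATF5, a factor related to ATF4 and likewise controlled through translation, had 1996 counts under siCont, 1656 under siERRG2 and 5303 under siERRG3, so that siERRG3 alone was above siCont, at 1.39. JDP2, another basic leucine zipper factor, had 55, 59 and 140 counts (0.08 and 1.29), and INHBE, an inhibin chain, 95, 105 and 167 (0.13 and 0.78). TSC22D3, also a glucocorticoid target, was called higher in each library, at 0.68 and 1.23. ADM2, a secreted peptide, was at 0.31 in siERRG2, where the interval of its ratio held 1, and was called higher in siERRG3, at 0.59. VLDLR, a lipoprotein receptor, went the other way, with 91, 180 and 79 counts (0.95 and -0.22), and SLC43A1, an amino acid carrier, was at -0.73 and 0.21.

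In the lists that follow, counts can be read against the 16.4% of all genes tested called higher and 19.2% called lower in siERRG2, and 23.2% and 25.1% in siERRG3. The 7 cytosolic synthetases outside the set included 0 called higher in either library, and 2 called lower in siERRG3, with medians of -0.09 and 0.08. Of 17 mitochondrial synthetases, 5 were called lower in siERRG2 and 2 higher in siERRG3. LARS2, the mitochondrial leucyl synthetase, had 1176 counts under siCont, 595 under siERRG2 and 1323 under siERRG3. The next list held 13 genes of eIF2, its exchange factor eIF2B, eIF2 phosphorylation and stress sensing. Of these, 0 were called higher and 2 lower in siERRG2, and 4 higher and 1 lower in siERRG3. OMA1, the mitochondrial protease that starts the signal to the heme-regulated kinase, had 370, 238 and 402 counts. EIF2AK2, on the same list, had 2001, 2210 and 2333 counts. It was called in neither library, at 0.13 and 0.20.

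Genes of the ATF6 and XBP1 arms, which answer unfolded proteins in the endoplasmic reticulum apart from eIF2, had medians below 0. Of 15, 2 were called higher and 3 lower in siERRG2 (median -0.13), and 1 higher and 7 lower in siERRG3 (median -0.26). EDEM1 and SEL1L, both of protein disposal from the endoplasmic reticulum, were at -0.69 and -0.62 in siERRG3. Of 9 genes of glutathione synthesis and turnover that passed the count filter, 1 was called higher in siERRG2 and 5 in siERRG3, where the median was 0.34. Of these 5 the interval lay above 1 for 4, and the other, GGT1, had 12, 13 and 17 counts and an interval that held 1, and is named after its values were seen. GSR, glutathione reductase, was the 1 called lower in siERRG3, with 2612 counts under siCont, 2828 under siERRG2 and 1013 under siERRG3 (log2 -1.39).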

How the data were processed

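The labels describe a directional kit for paired-end reads, the study's methods single-end reads aligned with BWA and Bowtie 2 to GRCh37/hg19, and the submitters' processing notes TopHat2, HTSeq, DESeq2, GRCh38, hg19 and hg38. Gene coordinates in the table match GRCh38, and the sources used here do not state which program made the counts: HTSeq is in the notes, with no role given. The authors deposited estimated counts (expected counts) per gene, which need not be whole, so reads that matched several genes or transcripts had been divided, and for 24 of the 44 genes they were whole in all 3 libraries. A second deposited value per gene and library carries no unit in the table and scales as FPKM does. The authors' own fold changes and p-values in the table were not used.

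Counts were rounded, the 14031 genes reaching 10 counts in any library were kept, and log2 CPM were computed in edgeR 4.0.16 (R 4.3.3) with TMM factors of 0.994, 1.003 and 1.003 and a prior count of 2. Intervals were computed in SciPy 1.17.1 at 95%, and the calculation was tested on simulated data. The implied length is the count divided by FPKM and library total, for 10171 genes with at least 100 counts and 1 FPKM in every library. Alternatives were library totals alone, DESeq2 1.42.0 size factors, no filter, a filter on a mean of 50 counts, a prior count of 0.5, FPKM with a pseudocount of 0.1 or 1, a threshold of 1.5-fold, and 1.2-fold with an interval that excludes 1.

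The 44 genes, their roles and the further lists were chosen with earlier results of these data known. Genes outside the 44 are named where a listed gene with a mean of at least 50 counts was at least 1.5-fold from siCont in either knockdown, as neighbours whose extents overlap, or as markers. EIF2AK2 is named as an eIF2 kinase gene outside the 44. Extents in the table overlapped another listed gene for 34 of the 44 and were over 1.5 times as long as in RefSeq for 25. The listed strand differed from that in RefSeq for 8 of the 35 genes with a promoter window, SLC1A5 and AARS among them. Whether counting used strand is not given in the sources used here, so reads in an overlap cannot be told apart.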

Additional observations from a re-analysis of the deposited data

Results flagged for a closer look

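EIF2AK3, PPP1R15A, SLC7A5 and SLC1A5 differed from siCont by at least 1.2-fold in each knockdown library, in opposite directions. The log2 fold change of siERRG3 against siERRG2 was -0.89 for EIF2AK3, whose siERRG3 difference from siCont was under 1.2-fold with FPKM and a pseudocount of 1. It was 1.16 for PPP1R15A, 0.79 for SLC7A5 and 1.14 for SLC1A5, which were lower than siCont in siERRG2 and higher in siERRG3. Both differences rest on the same siCont library, so the number of such genes is not a result. The difference between the siRNAs was not tested, since each gave 1 library.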

How the results depend on the processing

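No paired analysis was possible because each condition had 1 library, and for the same reason no library could be left out. At a threshold of 1.5-fold the number of genes higher was 3 in siERRG2 and 8 in siERRG3 against siCont, and 7 in siERRG3 against siERRG2, and the numbers lower were 2, 1 and 2. With FPKM and a pseudocount of 1, 2 genes were lower in siERRG3 against siCont in place of 4, because EIF2AK3 (-0.23) and ALDH1L2 (-0.24) came under the threshold. The other counts stayed within 1.5 times their value under the other alternatives. Over 132 gene values and 7 alternatives, 920 of 924 values stayed within the counting interval and 0 called values changed sign. The 4 that left it were, in siERRG3 on the FPKM scale, PSPH (0.25), SLC7A11 (0.42) and EPRS (0.15, with either pseudocount), and the cause was not tested. The largest move was 0.29. Calls changed 11 times, over 7 values, which besides EIF2AK3 and ALDH1L2 were CTH in siERRG2 (0.23 with FPKM and a pseudocount of 1, from 0.35), PSAT1 in siERRG3 (past the threshold under 3 alternatives, 0.26 to 0.27) and, in siERRG3 against siERRG2, TRIB3 (0.28 with FPKM and a pseudocount of 0.1, now past it), EIF2AK4 (-0.25 with a pseudocount of 1, now under it) and CHAC1 (under it with library totals, DESeq2 size factors and no filter). No alternative moved the median of all genes by over 0.1. Depth limits the genes of few counts most: the interval of CTH in siERRG2 spanned 1.03 to 1.60. Cultures of the same condition were not repeated, so no value here measures how much they vary.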
